A study of Rattus norvegicus with 20 samples.

Results

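The comparison described here set the right ventricles of rats 4 weeks after pulmonary banding against those of rats 4 weeks after a sham operation, with 5 ventricles in each group. Its members were the libraries labelled pressure overload or sham at 4 weeks, which made 10 of the 19 libraries in the deposited table and of the 20 labelled samples. All animals of both groups were Wistar rats, an outbred laboratory strain, aged 7 weeks when the tissue was taken, and no genetic change or drug is labelled. A band around the pulmonary artery raises the resistance against which the right ventricle ejects, and the sham animals had surgery without the band. The title of the series calls the animals pups, and the same 2 operations were followed to 8 weeks in other animals. How tight the band was, the pressures it raised and the sex of the animals are not in the labels used here. Nothing in the labels says whether animals were operated in batches. The replicates are separate samples by their labels. Where they share more than their group, the p-values measure only the spread between such samples. That spread was pooled over all 19 libraries, those of 8 weeks included.

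A ventricle that meets a higher pressure thickens its wall. Cardiac muscle cells enlarge, build new sarcomeres and reinforce the Z-discs and costameres that carry force sideways to the membrane. They also take up isoforms of myosin, actin and metabolic enzymes that are typical of the developing heart, use less fat as fuel, and change the ion channels that shape the action potential. Fibroblasts, vessels and macrophages between the muscle cells respond as well. The usual fetal markers are only a small part of this programme, and the groups below were chosen to describe what else moved.

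Library totals recovered from the deposited values ran from 4.74 to 6.76 M reads in sham and from 3.70 to 7.60 M in banding. Ventricular markers were abundant in all 10 libraries, with summed normalized counts of 570619 to 748429 in sham and 538246 to 631893 in banding, as the tissue label requires. Atrial transcripts differed between libraries of both groups. Myl7, which encodes an atrial myosin light chain, lay at 7268, 163, 2783, 52.5 and 237 in sham replicates 1 to 5 and at 64.2, 1160.2, 743, 73.3 and 172 in banding replicates 1 to 5. Sham replicates 1 and 3 and banding replicate 2 were above 1000, and these 3 libraries were left out in an alternative fit that is quoted where it matters. The summed fibroblast markers ran from 53971 to 109647 in sham, with sham replicates 1 and 3 holding the highest Col1a1 values, and from 52817 to 65092 in banding. Whether atrial or connective tissue was carried into those libraries was not tested. In such bulk samples, fewer cells of a type and less RNA per cell cannot be told apart.

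Of 10926 genes with enough counts to test, 2086 passed at an adjusted p under 0.05 (limma on log2(normalized count + 1), Benjamini-Hochberg over all genes), which is 19.1% of those tested. The 1013 genes higher in banding made up 9.27% and the 1073 lower genes 9.82%. These shares are the background against which each group below is read. Members and lists were chosen with earlier results of these data known. A share beyond this background therefore only describes the list and was not tested. The median log2 change over all tested genes was 0.000339 after the authors' scaling by size factors, which itself brings that median close to 0. Most changes were moderate, as 155 of the higher and 182 of the lower genes differed by at least 2-fold. The 5 banding libraries lay wholly above or wholly below the 5 sham libraries in 1449 genes (13.3% of those tested), with 711 above (6.51%) and 738 below (6.75%). In the authors' deposited table of this comparison 2223 genes passed at the same threshold, 2021 of them shared with the calls here, and all 2086 called genes had the same sign there.

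The largest rises, among called genes that averaged 50 or more and whose groups did not overlap, were led by genes of small adaptor proteins and of the stretched sarcomere. Tceal7 encodes a small protein of the transcription elongation factor A-like family known from regenerating skeletal muscle of the mouse. It stood at 15.2, 9.73, 27.3, 33.4 and 8.81 normalized counts in the 5 sham libraries and at 612, 475, 362, 661 and 380.1 in the 5 banding libraries. The lowest banding library was more than 10 times the highest sham library, and the log2 fold change was 4.79 ± 0.43 (limma, adjusted p = 5.89e-08). Ankrd23, a muscle ankyrin repeat protein that binds titin and reacts to stretch, lay at 135, 62.4, 173, 77.4 and 40.7 in sham and at 2930.0, 1568, 1393, 2856 and 1535 in banding, a change of 4.49 ± 0.29. Banding replicates 1 and 4 were the highest for Tceal7 and Ankrd23 alike, and they were also the highest for Myh7, Akip1 and Bex1.

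Several of the other large rises concern proteins that are not part of the sarcomere. Kcne1, the accessory subunit of a slow delayed rectifier potassium channel, stood at 3.57, 5.68, 4.69, 7.64 and 1.10 in sham and 69.997, 88.7, 167, 82.8 and 198 in banding. Kcne1 was thus close to the limit of detection in sham and clearly measured in every banding library, and its log2 change was 4.49 ± 0.52. Thbs4, a thrombospondin of the matrix that also acts inside the secretory pathway of stressed muscle, measured 250.2, 12.2, 272, 33.4 and 57.2 in sham and 1349.7, 954, 1189, 902 and 1404 in banding. Sham replicates 1 and 3, the libraries rich in Myl7, held the highest sham values of Thbs4, and the groups still did not overlap. Bex1, another adaptor-like protein, rose by 3.51 ± 0.24, and Rnd1, an atypical small GTPase that loosens actin stress fibres, rose by 3.46 ± 0.29. Penk, the precursor of the enkephalin opioid peptides, measured 153, 83.5, 225, 104 and 92.5 in sham and 1424, 936, 613, 1451 and 581 in banding. Its log2 change was 2.91 ± 0.26, and the highest sham library stayed below the lowest banding library. Akip1, a protein that binds the catalytic subunit of protein kinase A, rose by 2.82 ± 0.15, from 83.5 ± 14.6 to 601 ± 135 (SD, n = 5). Ncam1, a neural cell adhesion molecule that muscle fibres carry before innervation and after its loss, rose by 2.71 ± 0.17.

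**Figure D1:**
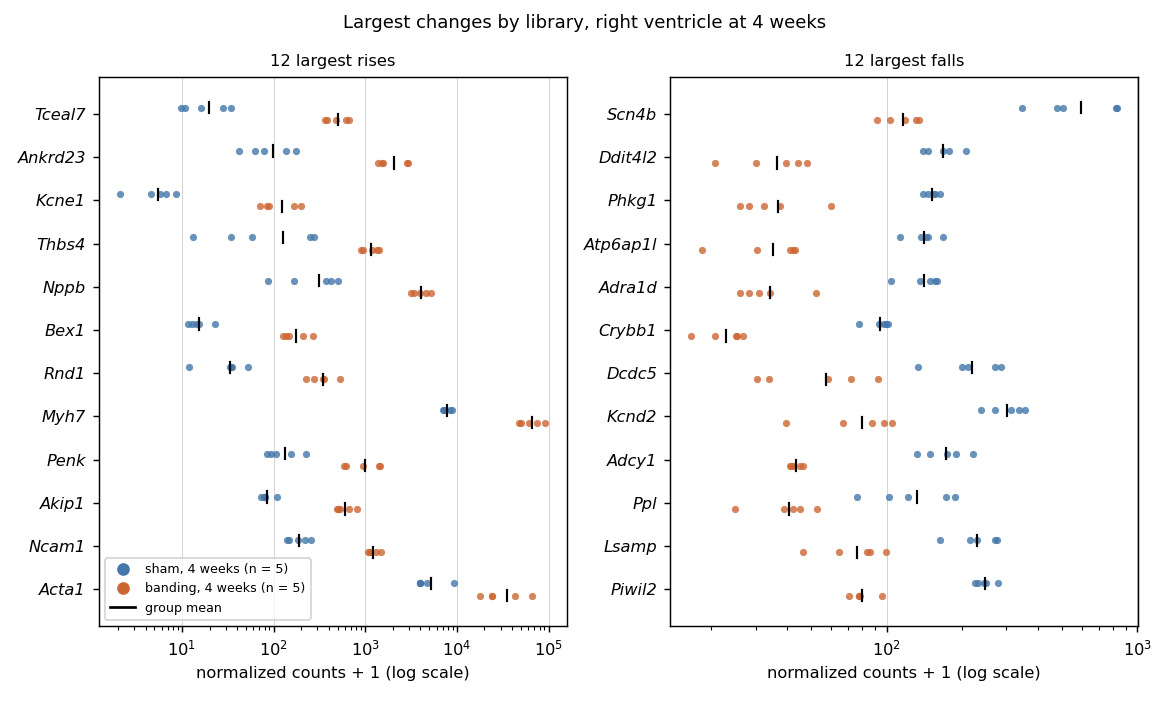
The plot shows normalized counts plus 1 on a log axis for the 12 largest rises (left) and the 12 largest falls (right), with 1 point per library, 5 sham and 5 banding libraries per gene, and a black bar at the mean. No gene has overlapping groups, as the naming rule required, and the distance between groups is widest for Tceal7, Ankrd23 and Kcne1.

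The usual load markers complete this list and are given only for orientation. Nppb rose by 3.95 ± 0.37, Myh7 by 3.02 ± 0.16, Acta1 by 2.69 ± 0.29 and Nppa by 4.67 ± 1.31, while Myh6 fell by 0.71 ± 0.12, and Atp2a2, measured only through 1 non-coding transcript ID and therefore uncertain, fell by 0.73 ± 0.15. Nppa did not hold in count models (edgeR, adjusted p = 0.176), and quantile normalization sets the change of Myh6 to 0.00.

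Promoter windows of the largest rises are shown so that the letters around their starts can be compared. RefSeq windows of the GRCr8 assembly, from 250 bases before to 50 bases after the start, were at hand for 8 of the 12 rises and for 9 of the 12 falls. The MCAT letters CATTCC, the core motif bound by TEAD factors, occurred on either strand in 5 of the 8 windows of rises, those of Tceal7, Ankrd23, Thbs4, Nppb and Acta1. They occurred in 0 of the 9 windows of falls and in 11.1% of the 8882 windows of all tested genes. Capitals mark every match on either strand (CATTCC, or GGAATG on the other strand; TGANTCA for AP-1; TNAAGGTCA for ERR; the serum response element CArG by name). These windows were read in the direction of transcription.
Tceal7, chrX:104019834-104020133, plus strand: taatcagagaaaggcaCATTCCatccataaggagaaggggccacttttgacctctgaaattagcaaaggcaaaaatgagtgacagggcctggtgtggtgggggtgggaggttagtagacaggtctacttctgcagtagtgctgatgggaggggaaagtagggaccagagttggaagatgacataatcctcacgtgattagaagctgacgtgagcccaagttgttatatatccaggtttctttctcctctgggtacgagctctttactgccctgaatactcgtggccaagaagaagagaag
Ankrd23, chr9:46274461-46274760, minus strand: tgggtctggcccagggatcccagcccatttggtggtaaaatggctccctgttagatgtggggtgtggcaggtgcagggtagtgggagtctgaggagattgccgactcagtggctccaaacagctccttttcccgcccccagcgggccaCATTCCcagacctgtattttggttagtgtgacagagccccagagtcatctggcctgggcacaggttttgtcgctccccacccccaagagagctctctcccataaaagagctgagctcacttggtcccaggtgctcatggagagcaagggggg
Thbs4, chr2:25760296-25760595, minus strand: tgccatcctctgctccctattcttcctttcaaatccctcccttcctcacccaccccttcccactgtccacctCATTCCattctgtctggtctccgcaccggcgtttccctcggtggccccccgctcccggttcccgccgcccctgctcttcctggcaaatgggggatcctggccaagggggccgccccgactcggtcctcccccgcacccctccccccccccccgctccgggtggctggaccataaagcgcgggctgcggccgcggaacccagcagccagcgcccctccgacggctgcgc
Nppb, chr5:163699758-163700057, plus strand: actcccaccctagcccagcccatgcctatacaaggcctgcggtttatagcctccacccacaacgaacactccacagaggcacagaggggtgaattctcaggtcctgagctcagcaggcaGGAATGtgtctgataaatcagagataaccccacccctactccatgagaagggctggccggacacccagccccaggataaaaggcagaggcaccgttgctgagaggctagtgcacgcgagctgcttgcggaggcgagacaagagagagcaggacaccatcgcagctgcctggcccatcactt
Acta1, chr19:68784145-68784444, minus strand: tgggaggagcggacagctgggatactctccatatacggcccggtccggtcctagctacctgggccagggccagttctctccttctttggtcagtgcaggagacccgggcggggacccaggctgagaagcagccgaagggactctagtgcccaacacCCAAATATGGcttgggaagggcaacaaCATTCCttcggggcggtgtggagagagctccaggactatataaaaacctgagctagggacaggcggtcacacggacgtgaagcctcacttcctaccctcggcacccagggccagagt
The window of Acta1 also held the CArG motif, which 1.17% of all windows held. AP-1 letters occurred in 1 of the 8 windows of rises, that of Kcne1, and in 4.9% of all windows, and ERR letters in 0 of the 8, 0 of the 9 and 0.495%. A match describes letters only, and these few windows were not tested.

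The largest falls were of a different kind and named mostly membrane proteins and signalling enzymes. Scn4b, an accessory subunit of the cardiac sodium channel, measured 821, 504, 827, 344 and 477 in sham and 130.1, 117, 134, 90.2 and 102 in banding, a log2 change of −2.3 ± 0.25 (limma, adjusted p = 8.27e-07). The lowest sham library, replicate 4, was still more than 2-fold above the highest banding library. Phkg1, the catalytic subunit of the muscle phosphorylase kinase that starts glycogen breakdown, measured 146, 162, 139, 154 and 155 in sham and 31.3, 27.2, 59.05, 24.9 and 36.5 in banding. The sham values of Phkg1 lay within a narrow band and the banding values far beneath it (−2.11 ± 0.22). Adra1d, an alpha-1 adrenergic receptor, fell by 2.07 ± 0.26, and Adcy1, a calmodulin-stimulated adenylyl cyclase, measured 188, 148, 173, 131 and 219 in sham and 45.3, 41.5, 40.6, 40.3 and 44.01 in banding. Kcnd2, a pore subunit of the transient outward potassium current, fell by 1.99 ± 0.25. The remaining large falls were of Ddit4l2 (−2.25 ± 0.19), a relative of a stress-induced inhibitor of mTOR signalling that has a near-identical copy and is therefore uncertain, Crybb1 (−2.05 ± 0.19), a crystallin best known from the lens, Ppl (−1.66 ± 0.32), the cytolinker periplakin, Lsamp (−1.62 ± 0.20), a neuronal adhesion protein, Piwil2 (−1.62 ± 0.14), a Piwi protein best known from the germ line, Atp6ap1l (−2.07 ± 0.23) and Dcdc5 (−2.02 ± 0.29). Crybb1 and Piwil2 each lay within a narrow range in sham, 76.8 to 100.3 and 225 to 276, and in banding, 15.6 to 25.7 and 70.1 to 95.03.

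The largest changes in mean count, rather than in ratio, were in abundant muscle genes. The 8 largest rises in mean count were Myh7, Ankrd1, Acta1, Xirp2, Pam, Cryab, Des and Flnc, and together they took 1.42 ± 0.084% of all normalized counts in sham and 4.56 ± 0.92% in banding (SD, n = 5 each). The 8 largest falls were Myh6, Slc25a4, Tnni3, Atp5f1a, Ckm, Fabp3, Ckmt2 and Lpl, and their share went from 8.23 ± 0.80% to 5.38 ± 0.14%, with Myh6 alone at 4.63 ± 0.56% and 2.78 ± 0.12%. Pam, which amidates peptide hormones in secretory granules, rose from 8376 ± 1183 to 16965 ± 2462 normalized counts. Slc25a4, the ADP/ATP carrier of muscle mitochondria, fell by 0.46 ± 0.09, and the creatine kinases Ckm and Ckmt2 fell by 0.57 ± 0.09 and 0.45 ± 0.10. These falls were small in ratio but concerned some of the most abundant transcripts of the tissue.

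Structural genes are given first, beginning with the Z-disc and costamere, where sarcomeres are anchored. Of 48 listed genes 36 were tested, and 17 rose and 1 fell, against 9.27% and 9.82% of all tested genes, with a list median of 0.36 on the log2 scale. Xirp2, an actin-binding repeat protein of growing and repairing myofibrils, measured 3756, 3292, 3662, 4166 and 3874 in sham and 35175, 17334, 18466, 25976 and 16701 in banding. Banding replicate 1 was the highest and the groups lay far apart (2.54 ± 0.21). Ankrd1, the ankyrin repeat partner of Ankrd23, rose by 2.27 ± 0.15, and Pdlim5, a PDZ and LIM scaffold that binds alpha-actinin, by 0.85 ± 0.08. The crosslinker Flnc rose by 0.95 ± 0.11 and the intermediate filament Des by 0.37 ± 0.08, the latter with a change of 0.00 and no call under quantile normalization. Csrp3, the muscle LIM protein, rose by 1.08 ± 0.12, and Tln1, which ties integrins to actin, by 0.49 ± 0.07, both picked for naming after their values were seen. The 1 gene that fell was Pdlim3 (−0.57), also named after its value was seen.

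Regulators of the filaments were counted next. Of 35 tested actin regulators 9 rose and 0 fell, with a median of 0.13. Cfl2, the muscle cofilin that turns over thin filaments, rose by 0.67 ± 0.09, Actr3 and Actr2, subunits of the branching Arp2/3 complex, by 0.43 ± 0.07 and 0.33 ± 0.07, and the actin-binding Pfn1 by 0.38 ± 0.08. Of 29 tested microtubule genes 6 rose and 2 fell. Map1a, a microtubule-associated protein best known from neurons, stood at 1001, 920.3, 949, 711 and 885 in sham and 2237, 2436, 2398, 2219 and 1701 in banding. No banding library reached down to the sham values of Map1a (1.3 ± 0.13). Kif5b, the heavy chain of the motor kinesin that moves cargo along microtubules, rose by 0.84 ± 0.09 and Map4 by 0.34 ± 0.07. Map1b rose by 0.60 ± 0.17, but its call was lost without sham replicate 2 (0.46, limma, adjusted p = 0.0504).

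Cytosolic chaperones that passed all moved in 1 direction, several small heat shock proteins among them. Of 31 tested cytosolic chaperones 15 rose and 0 fell, against 9.27% higher among all genes, and the list median was 0.24. Hspb7, a cardiac small heat shock protein that supports thin filaments, measured 3413, 3397, 2999, 4339 and 3719 in sham and 7025, 6111, 5986, 6826 and 5514 in banding. All banding libraries lay above all sham libraries, and the log2 change was 0.82 ± 0.10. Hspb6 rose by 0.98 ± 0.14, Hspb3 by 1.08 ± 0.17 and Cryab, the crystallin that guards desmin and titin, by 0.59 ± 0.11. Hspa1l, an Hsp70 relative, rose by 1.23 ± 0.21 from 21.6 ± 4.17 to 52.7 ± 14.9, and reads could be shared with its close paralogs. Hspb1 (0.69 ± 0.12) and the co-chaperone Bag3 (0.34 ± 0.10), both named after their values were seen, also passed, and Bag3 did not hold without the Myl7-rich libraries (0.22, limma, adjusted p = 0.145). The general heat shock genes Hsp90aa1, Hspa8 and Dnajb1 did not pass.

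**Figure D2:**
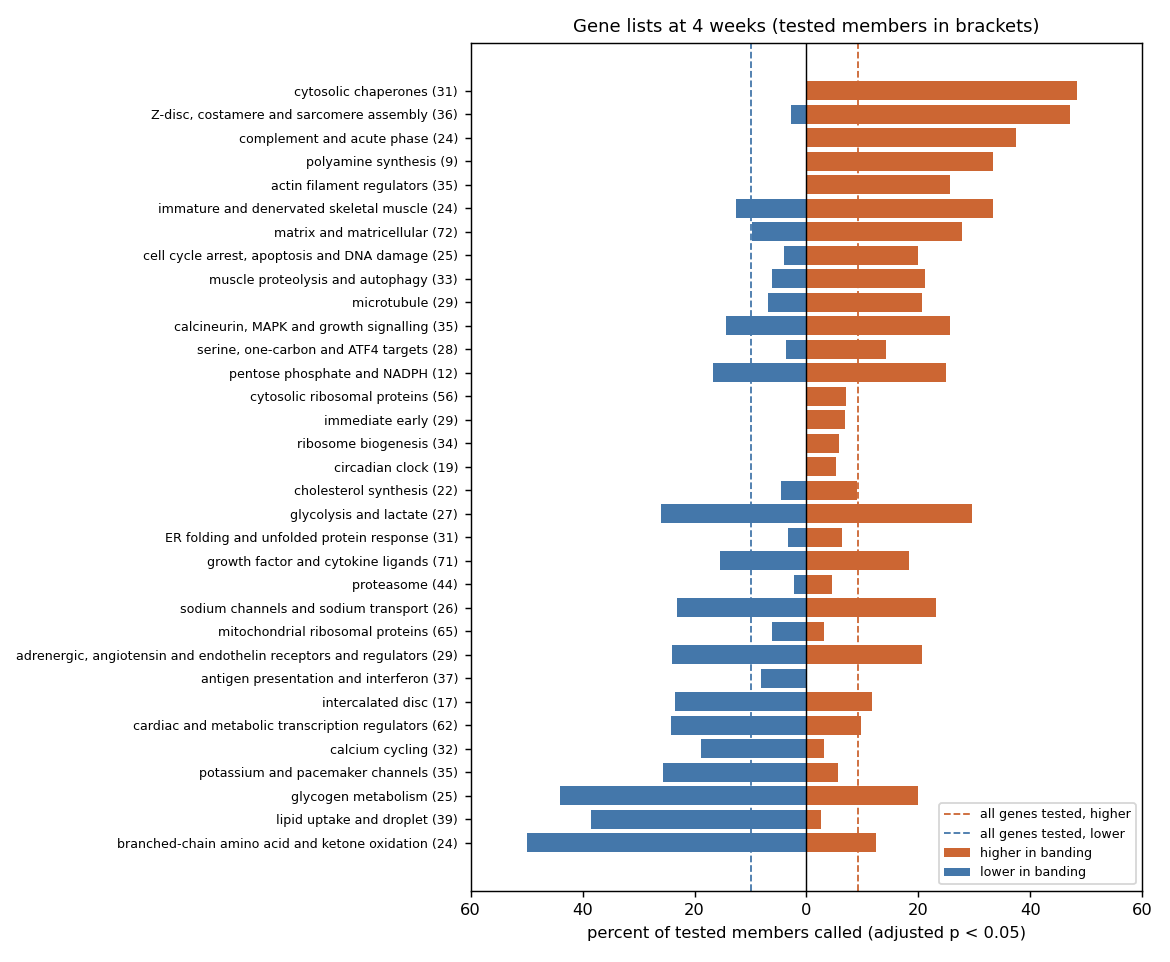
For each gene list other than the cell type markers, bars give the percent of tested members that passed as higher (right) or lower (left) in banding at 4 weeks, with the number tested in brackets and dashed lines at the shares over all tested genes, 9.27% and 9.82%. Among these lists, cytosolic chaperones and Z-disc genes reach furthest to the right, and branched-chain amino acid oxidation, glycogen and lipid genes furthest to the left.

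A set of genes known from immature or denervated skeletal muscle was examined because Tceal7, Bex1 and Ncam1 stood among the largest rises. The set was therefore not independent of them. It also holds Ankrd1 and Acta1, which are given above among the rises. Of 51 listed genes only 24 were abundant enough to test. Of these 8 rose (33.3%) and 3 fell (12.5%), against 9.27% and 9.82% of all tested genes. The 3 falls, listed only to complete the count, were of Dclk1 (−0.87 ± 0.25), Hdac9 (−0.30 ± 0.10) and Musk (−0.77 ± 0.26). Musk had low counts, and its groups did not overlap. Tnfrsf12a, the receptor of the cytokine TWEAK that appears on injured muscle, measured 74.2, 63.2, 114, 115 and 79.3 in sham and 574, 481, 355, 478 and 345 in banding, a change of 2.33 ± 0.17. Every banding library was at least 2-fold above every sham library. Gadd45a, a stress protein induced when muscle loses its nerve, rose by 1.13 ± 0.12. Myh3, the embryonic myosin, named after its values were seen, was at 0, 3.24, 1.56, 0 and 2.20 in sham and 19.8, 20.03, 23.1, 46.9 and 26.2 in banding, low counts of a gene that shares sequence with the far more abundant Myh7. The muscle regulators Myog, Myod1 and Myf5 and the receptor subunits Chrna1, Chrnd and Chrng stayed under the minimum for testing. The 3 falls came down to 1 when banding replicate 1, 3 or 5, sham replicate 2 or 4, or the Myl7-rich libraries were left out.

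Glucose genes moved in both directions, often with 1 isoform up and another down. Of 27 tested glycolysis and lactate genes 8 rose and 7 fell, and the median was 0.03. Pfkp, the platelet form of phosphofructokinase, measured 498, 459, 399, 485 and 425 in sham and 996, 737, 762, 938 and 887 in banding, while Pfkm, the muscle form, measured 6250.4, 7623, 5975, 7214 and 6842 and 4481, 4691, 4219.9, 4681 and 4423. The groups were separate in both and moved in opposite directions (0.92 ± 0.10 and −0.59 ± 0.07). Hk1, the hexokinase that is widespread across tissues, rose by 0.55 ± 0.07. Hk2, the insulin-regulated hexokinase of muscle, did not pass, with 0.22 ± 0.10 (limma, adjusted p = 0.111), though it passed as higher without banding replicate 3 (0.28, limma, adjusted p = 0.0457). Slc16a3, the lactate carrier of glycolytic cells, rose by 1.4 ± 0.21 and had low counts, 21.4 to 42.97 in sham and 71.04 to 108 in banding.

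Genes of further steps were named after their values were seen. Among these, the same exchange of isoforms appeared for the glucose carriers and the phosphoglycerate mutases. Slc2a1, the basal glucose carrier, measured 136, 161, 149, 127 and 139.8 in sham and 217, 256, 191, 257 and 267 in banding (0.73 ± 0.12). Slc2a4, the insulin-regulated carrier of adult muscle, went the other way (−0.40 ± 0.09), with a range of 3301 to 4451 in sham and of 2649 to 3470.5 in banding, which overlapped. Of the phosphoglycerate mutases, Pgam1, the form of most tissues, rose by 0.51 ± 0.10 and Pgam2, the muscle form, fell by 0.55 ± 0.10. Eno3, the muscle enolase, fell by 0.98 ± 0.17, and Pdk4, the kinase that holds pyruvate back from oxidation, fell by 1.01 ± 0.28, the latter not holding without the Myl7-rich libraries. Counted within each pair and without correction for transcript length, Pfkp made up 6.29 ± 0.66% of the counts of Pfkp and Pfkm in sham and 16.1 ± 1.7% in banding. For Pgam1 within Pgam1 and Pgam2 the shares were 16.5 ± 1.6% and 29.1 ± 3.3%, and for Slc2a1 within Slc2a1 and Slc2a4 they were 3.58 ± 0.47% and 7.56 ± 1.39% (SD, n = 5). The adult muscle form remained the one with more counts in each of these pairs. In the pair of Hk1 and Hk2, Hk1 held the larger share in both groups, 60.1 ± 2.7% in sham and 65.5 ± 1.3% in banding. For Eno3 no exchange could be seen, as Eno1 and Eno2 were under the minimum for testing.

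Glycogen genes moved in both directions. All 25 listed genes were tested, and 5 rose and 11 fell. Among the genes of breakdown, beside Phkg1, Phka1, a regulatory subunit of the same kinase, fell by 0.61 ± 0.08, and Pygb, the brain form of glycogen phosphorylase, measured 4659, 5416, 4385, 3882 and 4022 in sham and 2768, 2884, 2605, 2926 and 2621 in banding. The muscle phosphorylase Pygm, named after its values were seen, fell by 0.33 ± 0.07, while Phkg2, another catalytic subunit of the kinase and also named after its values were seen, rose by 0.41 ± 0.11, though not without the Myl7-rich libraries. Among the genes of synthesis, Gyg1, glycogenin, the primer on which glycogen is built, measured 1186, 1155, 1189.8, 1347 and 1062 in sham and 2139, 1608, 1795, 2194 and 1814 in banding (0.68 ± 0.09). Of the subunits that target a phosphatase to glycogen, Ppp1r3c rose by 0.73 ± 0.12 while Ppp1r3d (−0.60 ± 0.10) and Ppp1r3a (−0.34 ± 0.06) fell, and the synthase Gys1 fell by 0.25 ± 0.08, all 4 named after their values were seen. The call of Gys1 was lost in 6 of the 10 fits with a library left out. The remaining rises of the list, given only to complete the count, were of Gbe1 (0.40 ± 0.08) and Pgm1 (0.42 ± 0.09).

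**Figure D3:**
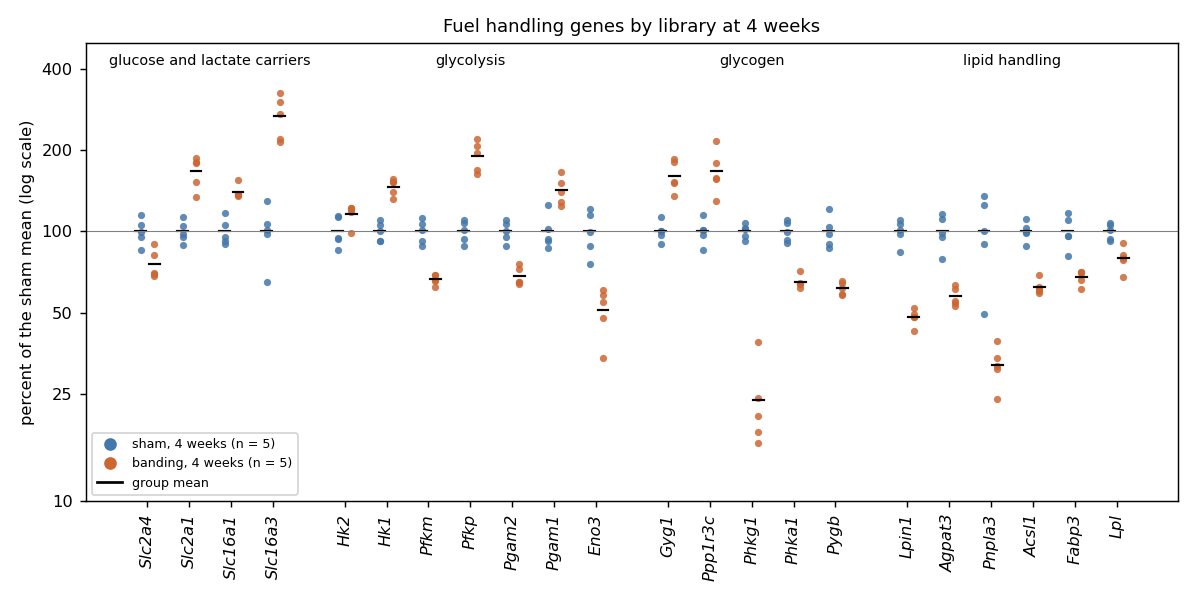
Each point is 1 library's normalized count as a percent of the sham mean of that gene, on a log axis, for 5 sham and 5 banding libraries, and black bars mark group means. Pfkp and Slc16a3 lie above 100% and Pfkm, Phkg1, Lpin1 and Acsl1 below it in all 5 banding libraries.

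Of 39 tested genes of lipid uptake and storage 15 fell, 1 rose and 23 did not pass, against 9.82% lower among all genes, with a median of −0.33. Lpin1, which makes diacylglycerol and coactivates fat oxidation genes, measured 1187, 1221, 935, 1085 and 1126 in sham and 533, 546, 475, 577 and 535 in banding. Its groups did not approach each other (−1.05 ± 0.08). Acsl1, the main enzyme that activates long-chain fatty acids in heart, fell by 0.68 ± 0.07, Agpat3, an acyltransferase of phosphatidic acid synthesis, by 0.79 ± 0.09, and Pnpla3, a lipid droplet enzyme, by 1.56 ± 0.21. Fabp3 and Lpl, the binding protein and the lipase that supply the heart with fatty acids, fell by 0.55 ± 0.11 and 0.33 ± 0.09. The fatty acid carrier Cd36 did not pass.

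Branched-chain amino acid oxidation and ketone use were listed together and moved apart. Of 24 tested genes 12 fell and 3 rose. Bckdk, the kinase that restrains the branched-chain dehydrogenase, measured 1280.3, 1362, 1241, 1161 and 1176 in sham and 812, 752, 799, 836 and 793 in banding. The enzyme's own subunit Bckdhb fell by 0.53 ± 0.08, Pccb, which handles the propionate made downstream, by 0.44 ± 0.08, and Bcat2, the mitochondrial transaminase, by 0.63 ± 0.11. The kinase and the enzyme it restrains were thus both lower. The 3 rises, named after their values were seen, were of Bcat1, the cytosolic transaminase (1.11 ± 0.22), and of the ketone enzymes Oxct1 (0.37 ± 0.10) and Bdh1 (0.58 ± 0.14). Oxct1, among the most abundant metabolic transcripts here, lay at 17056 to 21981 in sham and 21583 to 29006 in banding, ranges that overlapped slightly, and did not pass under quantile normalization or without the Myl7-rich libraries. Of 12 tested pentose phosphate and NADPH genes 3 rose and 2 fell, among them Pgd (0.42 ± 0.09) and Idh1 (0.33 ± 0.08) higher and Me3 (−0.40 ± 0.08) and Rpia (−0.38 ± 0.11) lower, Rpia not holding in every fit with a library left out.

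Electrical genes fell more often than they rose among potassium channels. Of 35 tested potassium and pacemaker genes 9 fell and 2 rose, with a median of −0.17. Kcnk2, a stretch-sensitive background channel, measured 87.6, 84.3, 51.6, 74.5 and 72.7 in sham and 18.9, 12.9, 11.99, 16.1 and 19.7 in banding. Every banding library was more than 2-fold below every sham library (−2.15 ± 0.28). Kcnj12, an inward rectifier that holds the resting potential, fell by 0.96 ± 0.12. Kcna2 (−1.93 ± 0.36) and Kcna5 (−1.11 ± 0.32), voltage-gated channels named after their values were seen, fell too, Kcna5 not without banding replicate 5 or the Myl7-rich libraries. Kcne1 went against the group. Kcnj11, the pore of the ATP-sensitive channel, did not pass (−0.16 ± 0.08, limma, adjusted p = 0.144).

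Sodium channel subunits moved in opposite directions. Of 26 tested genes of sodium channels and transport 6 rose and 6 fell. Scn3b, an accessory subunit of the same channel family as Scn4b, measured 25.02, 21.1, 24.2, 22.9 and 12.1 in sham and 268, 119, 96.9, 150.3 and 101 in banding (2.68 ± 0.31). Of the summed counts of Scn3b and Scn4b, Scn3b made up 3.71 ± 1.53% in sham and 54.4 ± 10.3% in banding, the lowest banding library being at 42.0% and the highest sham library at 6.25% (uncorrected for length; pair chosen after the values were seen). Slc4a3, an anion exchanger, fell by 0.47 ± 0.07, and Slc12a7, a potassium chloride cotransporter named after its values were seen, rose by 0.47 ± 0.09. Fxyd3, a regulator of the sodium pump also named after its values were seen, fell by 1.91 ± 0.38.

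**Figure D4:**
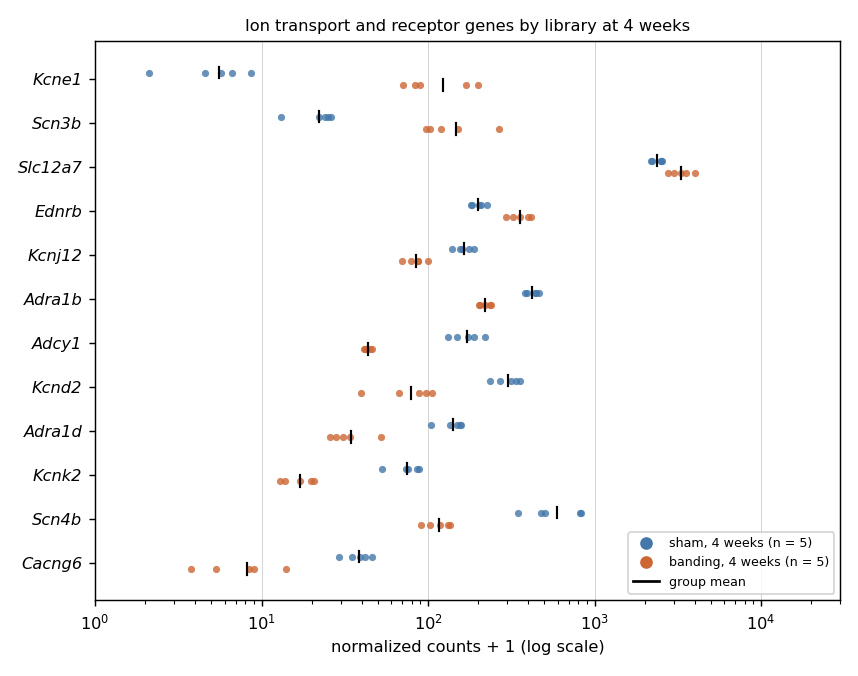
Normalized counts plus 1 on a log axis are shown for ion transport, receptor and adenylyl cyclase genes, 1 point per library and a black bar at the mean of each group of 5. Kcne1 and Scn3b lie to the right in banding, and Scn4b, Kcnk2, Kcnd2 and Adra1d to the left.

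Calcium cycling genes fell more often than they rose. Of 32 tested genes 1 rose (3.12%) and 6 fell (18.8%), against 9.27% and 9.82% of all tested genes. Casq1, the calcium store protein of fast skeletal muscle, measured 377, 346, 537, 347 and 288 in sham and 1513, 966, 662, 1517 and 863 in banding (1.5 ± 0.23). Its share of the counts of Casq1 and its cardiac relative Casq2 went from 4.09 ± 1.15% to 9.46 ± 2.48% (SD, n = 5, uncorrected for length). Trdn, which anchors calsequestrin to the release channel, fell by 0.44 ± 0.08, and Cacng6, a small auxiliary calcium channel subunit, fell by 2.36 ± 0.34 from low counts. Ryr2, the release channel itself, and Pln, the brake on the calcium pump, did not pass, Pln with −0.14 ± 0.09 (limma, adjusted p = 0.297), although Pln passed as lower under quantile normalization and without the Myl7-rich libraries. At the intercalated disc, where cells are coupled, 2 of 17 tested genes rose (11.8%) and 4 fell (23.5%), with a median of 0.0046. The 2 rises, listed only to complete the count, were of Pkp2 (0.47 ± 0.09) and Ctnna1 (0.23 ± 0.07). Cxadr, a cell adhesion receptor also used by coxsackieviruses, fell by 1.01 ± 0.15, the connexin Gja3 by 1.08 ± 0.18, Tmem65 by 0.54 ± 0.07 and Lims2 by 0.44 ± 0.08. Gja1, the main ventricular connexin, did not pass (−0.20 ± 0.11), but did as lower without sham replicate 3 or the Myl7-rich libraries.

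Among receptors of the stress hormones, the alpha-1 adrenergic receptors were lower. Of 29 tested adrenergic, angiotensin and endothelin genes 6 rose and 7 fell, the 6 rises falling to 3 without banding replicate 5. Adra1b measured 436, 442, 380.4, 391 and 463 in sham and 202, 203, 219.6, 235 and 237 in banding, without overlap (−0.94 ± 0.09). Adra1a, named after its values were seen, fell by 0.58 ± 0.14, so that all 3 alpha-1 receptor genes were lower. The muscarinic receptor Chrm2, the target of vagal acetylcholine, fell by 0.53 ± 0.09. Ednrb, an endothelin receptor, rose by 0.83 ± 0.11, and its ligand Edn1 (0.97 ± 0.28) and the angiotensin-converting enzyme Ace (0.78 ± 0.17), named after their values were seen, rose too, Edn1 not without replicate 5 of either group. The beta-adrenergic receptor Adrb1 and the angiotensin receptor Agtr1a did not pass.

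Among growth signalling genes more passed as higher than as lower, while the list median was −0.016. Of 35 tested calcineurin, MAPK and growth genes 9 rose (25.7%) and 5 fell (14.3%), against 9.27% and 9.82% of all tested genes. The falls came down to 2 without sham replicate 2 and to 3 without banding replicate 4 or 5. Rcan1, an inhibitor of calcineurin whose transcription calcineurin itself drives, measured 1873, 1729.5, 2319, 2102 and 1295 in sham and 7277, 5176, 4141, 5993 and 5048 in banding (1.57 ± 0.15). Dusp26, a phosphatase of MAP kinases, rose by 2.37 ± 0.25 from 9.52 ± 2.60 to 54.6 ± 18.5 normalized counts, and Prkcd by 0.76 ± 0.13, while Dusp10 fell by 0.78 ± 0.13. Of 25 tested genes of the cell cycle, apoptosis and DNA damage 5 rose and 1 fell. Ccnd2, a D-type cyclin linked to cardiac growth, measured 1223, 1165, 1358, 1519 and 1244 in sham and 3859, 3079.9, 2838, 3705 and 2784 in banding (1.31 ± 0.10). The other D-type cyclins, Ccnd1 (0.47 ± 0.09) and Ccnd3 (0.25 ± 0.07, not without the Myl7-rich libraries), named after their values were seen, rose too, so that 3 of the 5 rises were of cyclins that promote the cycle. Tp53inp1, a p53 target, rose by 0.91 ± 0.14, and Perp, a desmosome protein that is also a p53 target, fell by 0.89 ± 0.15. The arrest gene Cdkn1a and the p53 targets Mdm2, Aen and Phlda3 did not pass.

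Secreted ligands changed in both directions. Of 71 tested growth factor and cytokine genes 13 rose and 11 fell, the falls coming down to 6 without the Myl7-rich libraries and the rises to 7 under a minimum mean of 50. Tgfb2, a transforming growth factor, measured 123, 87.6, 155, 59.2 and 53.9 in sham and 476, 405, 268, 334 and 306 in banding (1.98 ± 0.24). Hbegf, an EGF receptor ligand, rose by 1.54 ± 0.21, and Inhbb, a subunit of activin B, by 1.58 ± 0.23. Tgfa, another EGF receptor ligand, named after its values were seen, lay at 13.4, 5.68, 5.47, 0.955 and 1.10 in sham and 18.1, 20.03, 22.1, 22.7 and 28.1 in banding. Angpt1, the ligand that steadies vessels through the Tie2 receptor, measured 346, 452, 238, 392 and 294 in sham and 75.8, 97.3, 142, 132 and 125 in banding (−1.58 ± 0.22), and the highest banding library stayed below the lowest sham library. Mstn, myostatin, a brake on muscle growth named after its values were seen, fell by 2.17 ± 0.58 from low counts of 3.12 to 17.8.

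Matrix genes that rose included basement membrane and matricellular genes. Of 72 tested matrix genes 20 rose and 7 fell. Without the Myl7-rich libraries 33 rose and 4 fell, and the part of atrial or connective tissue in this was not tested. Lamc1, a laminin chain around muscle cells and vessels, measured 7195, 7109, 7447, 6902 and 8077 in sham and 12201, 11164, 10683, 11430.1 and 11259.8 in banding (0.63 ± 0.08). Itga5, the integrin chain that binds fibronectin, rose by 0.63 ± 0.08. Ccn2, the connective tissue growth factor, measured 1103, 543, 1599.9, 626 and 547 in sham and 3791, 2267, 2140.4, 3003 and 2507 in banding, with the highest sham values in replicates 1 and 3. Col8a1, a short-chain collagen, rose by 2.04 ± 0.29. Named after their values were seen, Ltbp2 (2.46 ± 0.48), Timp1 (1.51 ± 0.23) and the laminin chain Lama5 (0.88 ± 0.13) rose and the protease inhibitor Timp4 fell by 1.51 ± 0.22. The fibrillar collagens Col1a1 and Col3a1 did not pass.

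Markers of the cells between the muscle fibres were counted in the same way. Of 13 tested markers of activated fibroblasts 5 rose and 0 fell, 8 rising without the Myl7-rich libraries, and their summed counts were 1388 to 5737 in sham and 5460 to 8650.0 in banding, ranges that overlap slightly. Of 13 tested general fibroblast markers 1 rose and 3 fell, 1 falling without those libraries. Pdgfra, a growth factor receptor of resting fibroblasts, named after its values were seen, fell by 0.76 ± 0.14. Of 16 tested endothelial markers 3 rose and 1 fell, with Kdr and Flt1, the receptors of vascular endothelial growth factor, at 0.58 ± 0.13 and 0.45 ± 0.07 and the water channel Aqp1 at −0.62 ± 0.12, all named after their values were seen, and Kdr did not pass without the Myl7-rich libraries. Of 15 tested pericyte and smooth muscle markers 5 rose and 0 fell, the rises coming down to 3 without sham replicate 2, with no filter or under quantile normalization, and 1 of the 5 was Des, which muscle cells also express.

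Of 20 tested macrophage and monocyte markers 11 rose, 0 fell and 9 did not pass, among these Cd163, Mertk, Folr2, Lyve1 and Ms4a7, against 9.27% higher among all genes, with summed counts of 3294 to 6728 in sham and 5560 to 7409 in banding. The number was sensitive to single libraries, with 4 rising without banding replicate 5 or sham replicate 2, 5 without sham replicate 5, 6 without banding replicate 3 or sham replicate 4, 7 without banding replicate 2 and 7 by edgeR. Gpnmb, a glycoprotein of lipid-handling macrophages, measured 97.4, 60.002, 109, 64.96 and 86.97 in sham and 318, 298, 341, 325 and 313 in banding. All 5 banding libraries lay within a narrow range well above sham (1.95 ± 0.14, limma, adjusted p = 1.77e-09). Trem2, a receptor of the same kind of macrophage, rose by 1.75 ± 0.32 and Lyz2, lysozyme, by 0.92 ± 0.14, and these 3 were named after their values were seen. Spp1, osteopontin, also named after its values were seen, did not hold in count models or when any 1 of 5 libraries was left out, and sham replicate 3 was the highest of all 10 libraries. Of 24 tested complement and acute phase genes 9 rose and 0 fell, 14 rising without the Myl7-rich libraries. The 4 with the smallest adjusted p were the shields Cd55 (0.90 ± 0.14) and Cd59b (0.31 ± 0.07), the C1 inhibitor Serping1 (0.63 ± 0.12) and the protease C1r (0.51 ± 0.11). C1qa and C1qc count among the 9 rises here and among the 11 macrophage rises, so these lists are not independent.

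Other immune lists and the adipocyte markers were counted beside the background of 9.27% higher and 9.82% lower. Of 37 tested antigen presentation and interferon genes 0 rose and 3 fell (8.11%), the falls reaching 7 without banding replicate 3. Cxcl11, an interferon-induced chemokine, fell by 1.52 ± 0.31, Cd74, the chaperone of class II antigen presentation, by 0.44 ± 0.10, and Ifi44 by 0.43 ± 0.13, whose call was lost in several fits with a library left out. Of 8 tested mast cell markers 1 rose (12.5%), the tryptase Tpsab1 (0.79 ± 0.23), and 0 fell. Of 7 tested T and NK cell markers 0 rose and 1 fell (14.3%), the NK receptor subunit Klrd1 (−1.31 ± 0.40). Both genes were named after their values were seen. Tpsab1 did not pass without banding replicate 5 or sham replicate 2 or 5, and Klrd1 not without banding replicate 1 or 3 or the Myl7-rich libraries. The T cell genes Cd3d, Cd3e and Cd3g were under the minimum for testing. The neutrophil genes Mpo and Elane were under it too. Of 8 adipocyte markers 0 rose and 3 fell (37.5%), the falls coming down to 1 without sham replicate 2 or the Myl7-rich libraries. The falls, listed only to complete the count, were of Cidea (−0.47 ± 0.10), Pck1 (−3.77 ± 1.08) and Lipe (−0.38 ± 0.13). In sham replicates 2 and 4, where Adipoq was at 0, Cidea measured 559 and 429 and Lipe 536 and 439. Adipoq, Plin1 and Retn did not pass.

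Transcription regulators fell more often than they rose. Of 62 tested cardiac and metabolic regulators 15 fell and 6 rose, with a median of −0.12. Rxrg, a retinoid X receptor, measured 658, 664, 532, 567 and 643 in sham and 256, 260.4, 330.3, 327 and 249.99 in banding, without overlap (−1.11 ± 0.13). Mef2a, a muscle transcription factor, fell by 0.43 ± 0.07, and Hif1a, the oxygen-regulated factor, by 0.34 ± 0.05. Named after their values were seen, Esrra fell by 0.40 ± 0.08, Ppargc1a by 0.42 ± 0.10 and Tbx5 by 0.84 ± 0.21. Irx4, a ventricular identity factor, rose by 0.72 ± 0.12, and Sox4 (1.15 ± 0.21) and Hopx (0.81 ± 0.19), named after their values were seen, rose too. Ppara, the receptor that drives fat oxidation genes, did not pass.

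The later comparison was used only to ask where the 4-week response differs from that at 8 weeks. It shares no library with the 4-week comparison. Both were fitted in the same model with a spread pooled over all libraries, so their calls are not independent. At 8 weeks, with 5 sham and 4 banding libraries, 3644 genes passed, 33.4% of those tested. Of the 2086 genes called at 4 weeks, 2044 had the same sign at 8 weeks and 1650 passed there in the same direction, which is 79.1% of the 4-week calls and 45.3% of the 8-week calls. The median size of their log2 change was 0.49 at 4 weeks and 0.56 at 8 weeks, and 1281 were larger at 8 weeks. Genes were picked at 4 weeks, so a smaller size elsewhere would be usual and the sizes were not tested against each other.

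Tested directly, the effect of banding differed between the times in 3 genes (0.0275% of those tested, limma, adjusted p = 0.0101 each), with 1278 genes at an unadjusted p under 0.05. Fxyd6, a regulator of the sodium pump, was the 1 that passed at 4 weeks, measuring 222, 265, 212, 267 and 229 in sham and 329, 288, 316, 314 and 313 in banding. The groups were separate by a small step (0.39 ± 0.10), and the change at 8 weeks was 1.26. The interferon-induced genes Oasl2 and Rsad2 did not pass at 4 weeks, with log2 changes of −0.23 and −0.14, and stood at 1.79 and 1.2 at 8 weeks. The count rested on the tool and on single libraries, with 3 genes by edgeR, 89 by DESeq2, 19 without banding replicate 3 and 23 without sham replicate 2. Of the 12 largest rises at 4 weeks 10 were larger at 8 weeks and the difference passed in 0 (smallest adjusted p = 0.118, limma, for Ncam1). Tceal7 stood at 4.79 and 5.14, Kcne1 at 4.49 and 3.96, Ncam1 at 2.71 and 3.7 and Acta1 at 2.69 and 3.68 at 4 and 8 weeks. Myh3 (3.72 and 2.89), Shmt1 (0.75 and 0.04) and Trim54 (0.59 and 0.22) had larger values at 4 weeks, and none of these differences passed. Tgfb2 (1.98 and 3.2), Angpt1 (−1.58 and −2.72) and Lsamp (−1.62 and −2.79) had larger values at 8 weeks, and none of these differences passed either.

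**Figure D5:**
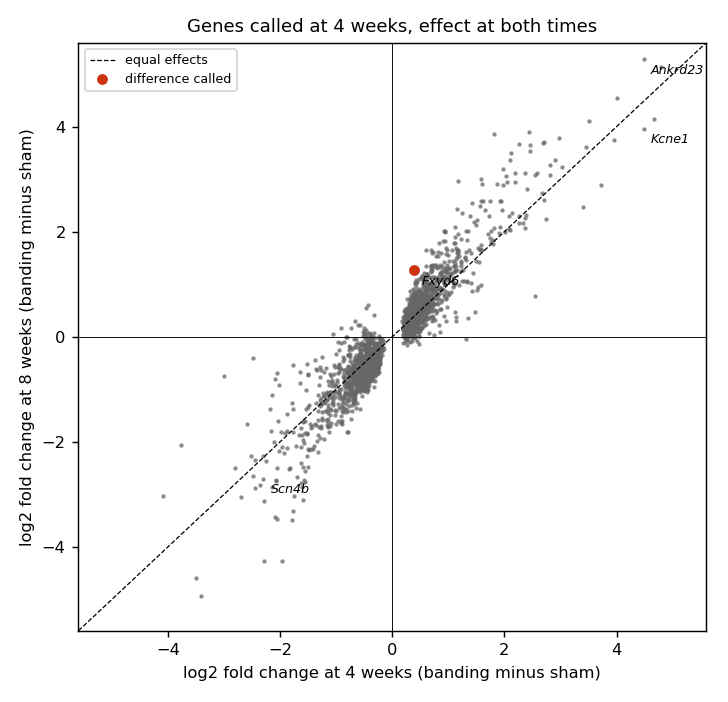
Each of the 2086 genes called at 4 weeks is plotted by its log2 fold change at 4 weeks (horizontal) and at 8 weeks (vertical), with a dashed line where both are equal and a red point for Fxyd6, the called gene whose effects differed. Nearly all points, 2044, lie in the 2 quadrants where the signs are the same.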

How the data were processed

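Total RNA was extracted with Trizol from the snap-frozen right ventricle and libraries were made with a kit that removes ribosomal RNA, per the labels' protocols. STAR, DESeq2 and the build rn6 are listed in the submitters' processing notes. The sources used here do not name the counting program or its strand setting. For 18282 RefSeq transcripts in 19 libraries the authors deposited normalized counts, a signal that equals the reads over each library's size factor. Replicate 2 of banding at 8 weeks was not analysed here. All positive values were whole multiples of a smallest step per library within 0.001, so reads were recovered for count models. Their deposited table of this comparison gives for each ID the log2 fold change, its standard error, the Wald score and both the raw and the adjusted p-value.

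Tests used limma 3.58.1 under R 4.3.3 (trend, 2-sided) on log2(value + 1), over IDs of at least 10 in at least 4 libraries, with all 19 libraries in 4 group means and 15 residual degrees of freedom. Calls required an adjusted p (Benjamini-Hochberg) below 0.05. Log2 changes ± SE are on that scale and understate low genes. Alternatives were other pseudocounts and filters, TMM, quantile normalization, edgeR 4.0.16 and DESeq2 1.42.0 on recovered reads, a replicate block, only the libraries of 4 weeks, and libraries left out. Symbols came from a RefSeq table of another assembly (GRCr8) for 17359 IDs and from the authors' table for 922. In lists each gene had 1 ID, the tested one with the highest mean. Genes with several IDs reached a mean of 10 in 13.0% of their IDs, against 61.7% for genes with 1 ID, so some genes were lost to the minimum.

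Named genes were the 12 largest rises and falls that averaged 50 or more and whose groups did not overlap, the 8 largest by mean count, up to 4 called members per list by p, the usual load markers, and transcripts without an established name. Genes outside this rule are said to have been named after their values were seen. Others are listed only as not passing, as not tested or to complete a count of calls. Results of a few chosen genes are not reported here. Members and lists were chosen with earlier results of these data known.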

Additional observations from a re-analysis of the deposited data

Results flagged for a closer look

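In 420 checks of a gene chosen for naming in a group of 5 libraries, 17 had a library far from the other 4 by Dixon's criterion, which chance alone passes in about 5% of groups. Sham replicate 4 was the highest of its group for Acta1, at 9291 normalized counts against 4699 in the next library. The same library was the highest for Akip1, at 109 against 80.5. Sham replicate 1 was the lowest for Pfn1, at 544 against 674 in the next library, and the highest for Nppa, at 14197 against 4083. In banding, replicate 3 was the highest for Piwil2 at 95.03 against 76.97, replicate 2 for Phka1 at 220.3 against 199 and replicate 4 for Slc4a3 at 1763 against 1466. Banding replicate 1 was the lowest for Ier5, an immediate early gene, at 312 against 414, and for Flt1, at 792 against 903. Among the genes named after their values were seen, banding replicate 3 was the lowest for Hk2 at 1095 against 1312, replicate 4 the highest for Slc16a1, a monocarboxylate carrier, at 5254 against 4682 and for Myh3 at 46.9 against 26.2, replicate 5 the lowest for Kcna5 at 17.8 against 30.8, and replicate 2 the highest for Ppargc1a at 501 against 384. Banding replicate 4 was also the highest for Ppp1r3d at 452 against 392. Sham replicate 2 was the highest for Kcnj11 at 941 against 772 and sham replicate 3 for Lyz2 at 687 against 519.7.

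The effect of banding differed between 8 and 4 weeks, by the test of the difference itself, for Oasl2 by 2.02, for Rsad2 by 1.34 and for Fxyd6 by 0.87 on the log2 scale. In each the effect at 8 weeks was the higher.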

How the results depend on the processing

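Over 21 alternatives the number of genes called at 4 weeks stayed within 1.5 times the 2086 reported. It was 2274 by DESeq2, 2176 by edgeR, 2171 under quantile normalization, 1956 with only the libraries of 4 weeks and 1840 without the Myl7-rich libraries. Leaving out each library in turn gave 1682 to 2074, the lowest without sham replicate 2. The number of genes whose effect differed between the times moved more, from 3 to 89 by DESeq2, 5 under TMM rescaling and 6 under quantile normalization, with 3 to 23 when each library was left out; the cause was not tested. Same-numbered libraries did not deviate together (correlations of −0.11 to 0.12), so the numbers were not taken to pair animals, and the fit with the replicate number as a block called 2068 genes at 4 weeks and 3 in the difference. No gene chosen for naming changed direction in any alternative that gave it a value. Of 210 genes chosen for naming 175 kept their call or lack of one in every alternative that gave them a value, and 35 changed it in at least 1. The 12 that changed it in 4 or more included Gas5, Spp1, Stard4, Gys1, Sat1, RGD1309036, Bag3, Edem2, Ifi44, Ncl and RGD1359108, of which Spp1, Gas5 and RGD1309036 did so in fits with all 10 libraries too. Canx, Psmd14, Rpl41 and Rps16 were lost only without the Myl7-rich libraries and Mrps15 only without sham replicate 2. The replicate block changed the calls of Gas5 (lost) and Hk2 (gained). Read depth limits low genes such as Kcne1, Tgfa and Mstn in the group where they are low.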

Other observations

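Gene groups of protein synthesis and turnover were counted too, beside the background of 9.27% higher and 9.82% lower. Of 56 tested cytosolic ribosomal protein genes 4 rose and 0 fell (2 rising without the Myl7-rich libraries), with Rpl3 at 0.50 ± 0.10, Rps24 at 0.45 ± 0.11, Rps16 at 0.40 ± 0.11 and Rpl41 at 0.36 ± 0.09. Of 34 ribosome biogenesis genes 2 rose and 0 fell, the nucleolar proteins Npm1 (0.34 ± 0.08) and Ncl (0.35 ± 0.11). Of 65 mitochondrial ribosomal protein genes 2 rose and 4 fell, with Mrps26 higher (0.43 ± 0.09) and Mrps9, Mrpl4 and Mrps15 lower by 0.27 to 0.28, the 4 falls being 2 without sham replicate 2 and 7 without sham replicate 3. Of 44 proteasome genes 2 rose and 1 fell, and the 1 that fell was Psme1, a subunit of the interferon-induced proteasome activator, from 1275 ± 129 to 833 ± 69.6 normalized counts. Psmd8 rose by 0.53 ± 0.08 and Psmd14 by 0.27 ± 0.08. Of 31 genes of protein folding in the endoplasmic reticulum 2 rose and 1 fell, namely Canx (0.19 ± 0.06), Edem2 (0.46 ± 0.14) and Cdnf (−0.85 ± 0.11). Of 33 muscle proteolysis and autophagy genes 7 rose and 2 fell, with the sarcomere ligase Trim54 (0.59 ± 0.09), the mitophagy receptor Bnip3 (0.50 ± 0.09) and the autophagy adaptor Sqstm1 (0.55 ± 0.10) higher and Klhl38 (−0.86 ± 0.15) lower.

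Genes of polyamine and amino acid supply were also counted, beside the same background of 9.27% higher and 9.82% lower. Of 9 tested polyamine genes 3 rose and 0 fell, and Azin2, which frees ornithine decarboxylase from its inhibitor, measured 17.9, 12.97, 14.1, 14.3 and 17.6 in sham and 43.6, 32.9, 37.8, 47.6 and 28.1 in banding, without overlap. Smox, which oxidises spermine, rose by 0.92 ± 0.21 and Sat1 by 0.48 ± 0.15. Of 28 genes of serine and one-carbon metabolism and of the stress factor ATF4, 4 rose and 1 fell (7 rising without the Myl7-rich libraries), among them the amino acid carriers Slc38a1 (0.62 ± 0.11) and Slc7a1 (0.90 ± 0.21), Shmt1 (0.75 ± 0.16) and the stress cytokine Gdf15 (1.24 ± 0.35), the latter not without banding replicate 1. Of 22 cholesterol genes 2 rose (9.09%) and 1 fell (4.55%), among them Stard4 (0.33 ± 0.11) and Fdft1 (−0.40 ± 0.10). Stard4 did not hold without the Myl7-rich libraries or in several fits with a library left out. Of 19 clock genes 1 rose (5.26%), Cry2 (0.52 ± 0.09). Of 29 immediate early genes 2 rose (6.9%), Maff (0.63 ± 0.14) and Ier5 (0.66 ± 0.15). The shares of the cholesterol, clock and immediate early genes did not exceed the background.

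A few transcripts without an established protein name were named by the rule. LOC100911177 rose by 0.60 ± 0.11 and RGD1359108 by 0.34 ± 0.10, and Lnc-hc, Gas5 and RGD1309036 fell by 0.52 ± 0.12, 0.43 ± 0.15 and 0.52 ± 0.17. Strand was not stated, so reads of overlapping genes on the other strand cannot be told apart from theirs.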
